A study of Rattus norvegicus with 9 samples.

Results

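The intercalated cells of the kidney collecting duct secrete acid or base, and 10 genes that carry out or mark this work were examined in rat kidney RNA. The genes were taken by symbol: pendrin (Slc26a4), the anion exchangers Slc4a9, Slc4a8, Slc4a1 and Slc26a7, the Rh ammonia channels Rhcg and Rhbg, and the identity genes Foxi1, Insrr and Hepacam2. All 10 were found among the 19367 genes of the expression table. The table covers 9 kidney libraries in 3 groups of 3. WKY are Wistar-Kyoto rats, a normotensive strain, given distilled water by mouth. SHR are spontaneously hypertensive rats, a strain that develops high blood pressure, given the same water. Treated SHR received dapagliflozin, an inhibitor of the proximal sodium-glucose cotransporter SGLT2, by mouth at 10 mg/kg per day. All rats were 3 months old at the start and were treated for 8 weeks. Another label names saline in place of water for the untreated rats, and since the strain entry is Wistar-Kyoto throughout, groups follow the sample titles. The drug was given only to SHR, so a treated normotensive group was not analysed here. Treated SHR and WKY differ in strain and drug at once, and that comparison cannot tell the parts of strain and drug apart. The labels do not tie libraries to animals, and p-values measure the spread between these libraries, which may be technical.

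Type A intercalated cells pump protons into the urine and return bicarbonate to the blood through the basolateral exchanger AE1. Type B cells work the other way round: apical pendrin secretes bicarbonate in exchange for chloride, which also makes pendrin part of salt recovery and blood pressure control. The Rh proteins carry ammonia across the collecting duct cells, the step by which most acid leaves in the urine. The forkhead transcription factor Foxi1 sets intercalated cell fate and switches on genes of both cell types.

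Levels are FPKM, fragments scaled to transcript length and library size, so genes of different length can be compared. Library sums of FPKM ran from 563643 to 589838, and the number of reads behind them is not known. Changes are differences in log2(FPKM + 1) from limma over all 13127 genes with at least 1 FPKM in at least 3 libraries, and a gene was called at a Benjamini-Hochberg adjusted p under 0.05. Of the 10 genes, 9 passed this filter and Slc4a8 did not. In bulk tissue, fewer cells of a type and less RNA per cell cannot be told apart. As a check of the labelled tissue, proximal tubule markers were abundant, with the 16 of a fixed list summing to 3916 to 10408 FPKM, and podocyte markers were present in every library.

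The stretches of 250 bases before the RefSeq start sites of Foxi1 and pendrin (GRCr8) are shown as the control regions of the regulator and of a textbook target of it. Capitals mark TATAA within the last 50 bases, a motif chosen after the sequences were seen.
Foxi1 (chr10:19314406-19314655, minus strand): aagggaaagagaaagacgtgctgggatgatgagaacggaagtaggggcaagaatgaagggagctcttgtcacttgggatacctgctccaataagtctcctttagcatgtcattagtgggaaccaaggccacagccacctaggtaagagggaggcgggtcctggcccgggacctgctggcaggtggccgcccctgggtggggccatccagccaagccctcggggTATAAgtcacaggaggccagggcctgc
Slc26a4 (chr6:53873217-53873466, minus strand): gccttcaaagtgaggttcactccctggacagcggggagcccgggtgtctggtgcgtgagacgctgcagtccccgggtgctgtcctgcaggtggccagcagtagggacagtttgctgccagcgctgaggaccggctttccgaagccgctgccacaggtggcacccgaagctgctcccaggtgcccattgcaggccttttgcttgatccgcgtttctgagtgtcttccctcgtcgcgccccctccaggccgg
The Foxi1 window held TATAA at position -27, where -1 is the base before the start, and the pendrin window held none. TATAA stood in 4.28% of all 33469 promoter windows and in 2 of the 7 available for these genes, Foxi1 and Slc4a9. The forkhead cores TGTTTA and TATTTA, searched on both strands over 250 bases, stood in 1 of the 7 windows, that of Slc4a9, and 1 or both stood in 22.6% of all windows. Slc4a1, Slc26a7 and Insrr were not among the windows used.

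Transcripts of 8 of the 10 genes were 1.86 to 3.25 times as abundant in treated SHR as in WKY, with untreated SHR in between, and all 8 were called. Pendrin stood at 78.0 ± 18.7 FPKM in WKY, 129 ± 28.4 in SHR and 217 ± 55.6 in treated SHR (mean ± SD, n = 3 per group). The ammonia channel Rhcg had the highest level in treated SHR, 448 ± 136 FPKM against 146 ± 40.2 in WKY. Slc26a7 stayed near 3 FPKM in every group and was not called. In treated SHR against WKY 8 of 9 genes tested rose (limma, Benjamini-Hochberg), while 22.9% of all genes tested were called and 16.8% were called higher. In untreated SHR against WKY 0 of 9 were called, where 2.96% of all genes were, and in treated against untreated SHR 0 of 9 were called, where 0% were. At an unadjusted p under 0.05, 8 were higher in SHR than in WKY and 7 were higher in treated than in untreated SHR, against 14.2% and 9.82% of all genes higher at that p. Both comparisons use the same SHR libraries, and they share them in opposite roles.

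**Figure D1:**
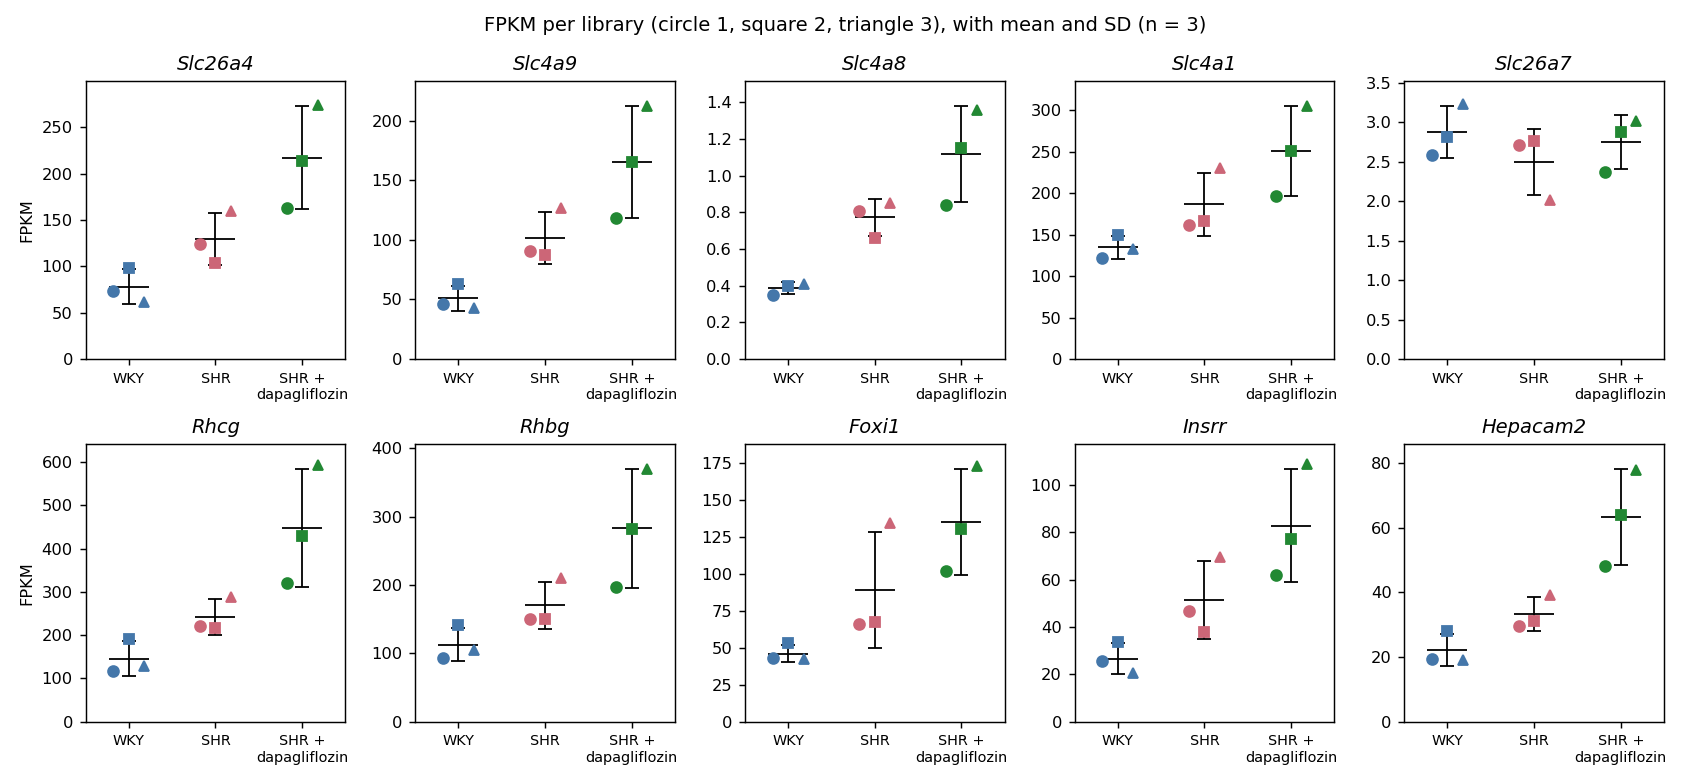
FPKM (y axis, linear, from 0) of each gene in each library of WKY, SHR and dapagliflozin-treated SHR (x axis); circles, squares and triangles are libraries 1, 2 and 3, and bars give the mean and SD of 3 libraries. For 8 of the genes all 3 treated libraries lie above all 3 WKY libraries, as they do for the low Slc4a8, while Slc26a7 lies between 2.02 and 3.23 FPKM in every group.

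Pendrin (gene ID 29440), the apical chloride-bicarbonate exchanger of type B cells, measured 73.4, 98.55 and 62.0 FPKM in WKY libraries 1 to 3. In SHR the values were 124, 104 and 160.01 FPKM, and with the drug they were 163, 214 and 274 FPKM. No library of one group overlapped another group, although SHR 3 and treated library 1 lay next to each other. The log2 change was 1.46 (SE 0.24, adjusted p = 0.00763) in treated SHR against WKY. It was 0.73 (SE 0.24, adjusted p = 0.155) in SHR against WKY and 0.73 (SE 0.24, adjusted p = 0.285) in treated against untreated SHR, neither of which passed. A long non-coding RNA gene overlaps pendrin in the GRCr8 table, and strand use in the authors' counting is not given in the sources used here, so reads of that RNA cannot be told apart from pendrin's.

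Slc4a9 (AE4, gene ID 266612), an exchanger of the basolateral face of type B cells, measured 46.4, 63.2 and 43.0 FPKM in WKY. The values were 90.7, 87.4 and 126 in SHR and 118, 165 and 212 in treated SHR. SHR lay above WKY throughout, and treated library 1 lay below SHR 3. Its log2 change of 1.66 (SE 0.24, adjusted p = 0.00496) in treated SHR against WKY was the largest among the 9 genes. For SHR against WKY it was 0.98 (SE 0.24, adjusted p = 0.0664), with a 95% interval of 0.45 to 1.52. This change was called in limma with only the 6 libraries compared (adjusted p = 0.0372), without treated library 1 (0.028), without treated library 3 (0.045) and with array weights (0.00141). Those fits also called more of all genes, 508, 625, 448 and 3911 in that order, against 388 as reported.

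Slc4a8 (NDCBE, gene ID 315311), the sodium-driven exchanger that works with pendrin in type B cells to take up sodium chloride, was barely present. Its WKY values were 0.35, 0.40 and 0.41 FPKM, those of SHR 0.81, 0.66 and 0.85, and those of treated SHR 0.84, 1.15 and 1.36. WKY lay below the other groups in every library, and SHR 3 lay above treated library 1. With no filter on low values the log2 change in treated SHR against WKY was 0.60 (SE 0.10, limma adjusted p = 0.0117). The SHR to WKY change was 0.35 (SE 0.10, limma adjusted p = 0.127). The scale of FPKM + 1 understates changes of genes this low, and the ratio of mean FPKM of treated SHR to WKY was 2.89.

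Slc4a1 (AE1, gene ID 24779), the basolateral exchanger of type A cells and the band 3 protein of red cells, measured 122, 149 and 133 FPKM in WKY. SHR gave 162, 167 and 231 FPKM and treated SHR 197, 251 and 305. WKY lay below all other libraries, while treated library 1 lay below SHR 3. The log2 change in treated SHR against WKY was 0.87 (SE 0.18, adjusted p = 0.0163), the smallest of the 8 called. This call was lost without WKY 1 (adjusted p = 0.0615), WKY 3 (0.0637), treated library 2 (0.0501) or treated library 3 (0.0515).

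Because red cell precursors also express Slc4a1, erythroid markers were read beside it. Of 13 markers 5 passed the filter, and in treated SHR against WKY 1 rose (the spectrin gene Sptb, log2 change 0.53, adjusted p = 0.032) and 1 fell. In that comparison 16.8% of all genes were called higher and 6.09% lower. The band 4.2 gene Epb42 was at most 0.64 FPKM and the Rh-associated glycoprotein gene Rhag at most 0.12 in all 9 libraries. The summed level of the 13 ran from 24.3 to 28.9 FPKM in WKY, from 28.5 to 33.9 in SHR and from 26.3 to 29.6 in treated SHR, so WKY overlapped both other groups. The part of red cell RNA in the Slc4a1 values was not tested further.

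Slc26a7 (gene ID 297910), a basolateral chloride-bicarbonate exchanger of type A cells in the outer medulla, was the exception. Its levels were 2.59, 2.81 and 3.23 FPKM in WKY, 2.71, 2.76 and 2.02 in SHR, and 2.37, 2.87 and 3.01 in treated SHR. All groups overlapped. Its log2 change in treated SHR against WKY was -0.05 (SE 0.13, adjusted p = 0.803), with a 95% interval of -0.34 to 0.25. That interval lies below the intervals of the 8 called genes, the nearest being Slc4a1 at 0.46 to 1.29.

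Rhcg (gene ID 293048), the ammonia channel found on the apical face of collecting duct cells, measured 118, 192 and 128 FPKM in WKY. The SHR libraries gave 220.4, 216 and 289 FPKM and the treated ones 322, 429 and 592. All 3 groups were separate. The log2 change was 1.60 (SE 0.25, adjusted p = 0.00693) in treated SHR against WKY and 0.85 (SE 0.25, adjusted p = 0.281) in treated against untreated SHR.

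Rhbg (gene ID 310625), its basolateral counterpart, measured 93.7, 141 and 104 FPKM in WKY, 151, 150.35 and 210 in SHR, and 196, 282 and 370 in treated SHR. Treated library 1 lay below SHR 3, and WKY lay below all others. The log2 change in treated SHR against WKY was 1.29 (SE 0.25, adjusted p = 0.0125), a call lost without WKY 1 (0.0507) or WKY 3 (0.0566).

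Foxi1 (gene ID 287185), the transcription factor of intercalated cells, measured 43.2, 53.0 and 42.1 FPKM in WKY, 65.9, 67.3 and 134 in SHR, and 102, 130.2 and 173 in treated SHR. SHR 3 stood at about the level of treated library 2, and the other 2 SHR libraries lay below all treated ones. Its log2 change in treated SHR against WKY was 1.504 (SE 0.28, adjusted p = 0.0121) and was not called without WKY 3 (0.0565). Against untreated SHR it was 0.64 (SE 0.28, adjusted p = 0.329), with an interval reaching 0.

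Insrr (gene ID 60663), the insulin receptor-related receptor that senses alkaline fluid, measured 25.7, 33.5 and 20.55 FPKM in WKY, 46.8, 37.8 and 69.5 in SHR, and 62.1, 77.3 and 109 in treated SHR. Hepacam2 (gene ID 296846), an immunoglobulin-family adhesion protein that marks intercalated cells, measured 19.5, 28.0 and 19.2 FPKM in WKY, 29.7, 31.1 and 39.3 in SHR, and 48.2, 63.7 and 77.8 in treated SHR. Hepacam2 separated all groups, while Insrr in treated library 1 lay below SHR 3. In treated SHR against WKY the log2 change was 1.59 for Insrr (SE 0.27, adjusted p = 0.0092) and 1.46 for Hepacam2 (SE 0.20, adjusted p = 0.00434). Hepacam2 also had the largest change of the 9 genes in treated against untreated SHR, 0.89 (SE 0.20, adjusted p = 0.281, 95% interval 0.43 to 1.34).

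**Figure D2:**
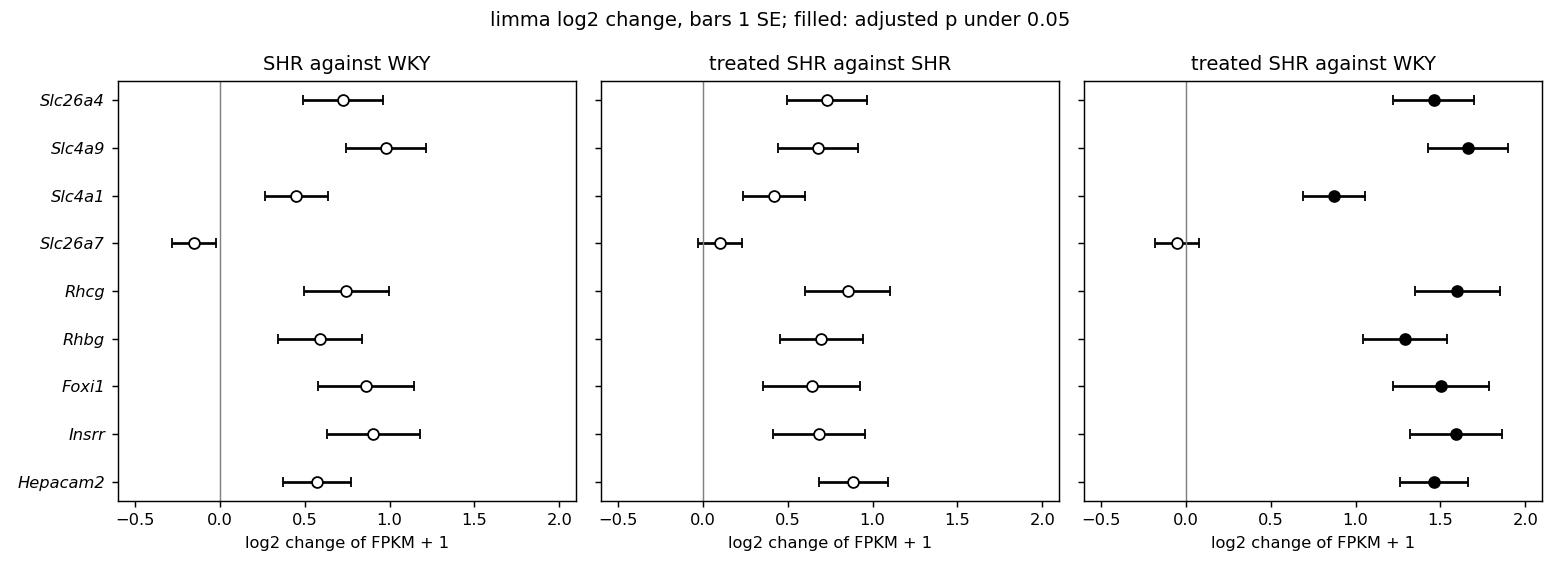
limma log2 change of FPKM + 1 (x axis) with 1 SE for the 9 genes tested (y axis) in each of the 3 comparisons; filled points have an adjusted p under 0.05. Filled points appear in treated SHR against WKY alone, where 8 genes lie between 0.87 and 1.66 and Slc26a7 lies at -0.05.

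Groups did not overlap for 8 of 9 genes in SHR against WKY, all higher, where 20.3% of all genes were separate and higher. They did not overlap for 3 of 9 in treated against untreated SHR (pendrin, Rhcg and Hepacam2), against 12.6% of all genes. In treated SHR against WKY 8 of 9 were separate and higher, against 28.2%. The median log2 change of the 9 genes was 0.73, 0.69 and 1.46 in these comparisons in turn, and that of all genes tested was 0.07, 0.04 and 0.11. With median-of-ratios scaling the medians of all genes were 0.00, -0.01 and -0.01, and 8 of the genes still were called in treated SHR against WKY.

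Single libraries mattered for the comparison with untreated SHR. Treated library 1 had the lowest treated value for all 8 called genes, and treated library 3 the highest. Without treated library 1, limma called 4 of 9 higher in treated than in untreated SHR: Slc4a9, Rhcg, Rhbg and Hepacam2 (adjusted p = 0.0478, 0.042, 0.0454 and 0.0299). The same fit called 834 of 13087 genes, 409 of them higher, against 0 of all genes with every library. SHR 3 held the highest untreated value for all 8, and WKY 2 the highest WKY value for all 8. Without WKY 3 the number called in treated SHR against WKY was 5 in place of 8, and that of all genes was 515 of 13049 in place of 3010 of 13127.

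The order of the levels was nearly the same in every library. Rhcg, Slc4a1 and Rhbg held the 3 highest levels, pendrin the fourth place in all 9 libraries, then Slc4a9 and Foxi1, Insrr, Hepacam2, Slc26a7 and Slc4a8. Slc4a9 and Foxi1 changed places in SHR 3 alone. Slc4a1 was above Rhbg in all 3 WKY and all 3 SHR libraries but below it in treated libraries 2 and 3. In WKY the means were 146 ± 40.2 FPKM for Rhcg, 135 ± 13.5 for Slc4a1 and 113 ± 24.7 for Rhbg. Slc4a9 stood at 50.9 ± 10.8 and Foxi1 at 46.1 ± 6.02. Rhcg lay above Slc4a1 in WKY 2 but not in WKY 1 or WKY 3. In each WKY library Rhcg lay above Rhbg, and Slc4a9 above Foxi1.

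The log2 changes of the 8 called genes in treated SHR against WKY ran from 0.87 for Slc4a1 to 1.66 for Slc4a9. Their 95% intervals overlap (0.46 to 1.29 and 1.12 to 2.19), but both genes were measured in the same libraries (Pearson's r = 0.976). That overlap therefore does not measure the uncertainty of the difference between them. Within libraries, pendrin of type B cells was compared with Slc4a1 of type A cells, with only these genes standing for the cell types. Slc4a1 had the smallest change of the 8 called genes, so this ratio does not measure the balance of the cell types. The ratio of pendrin to Slc4a1 FPKM was 0.5999, 0.661 and 0.467 in WKY, 0.767, 0.623 and 0.694 in SHR, and 0.829, 0.853 and 0.899 in treated SHR. The 3 treated libraries lay above all others, and SHR overlapped WKY. On the log2 scale the mean ratio was higher by 0.59 in treated SHR than in WKY and by 0.31 than in untreated SHR, with an exact two-sided permutation p of 0.1 each, the smallest that 3 against 3 allows (0.15 each after Benjamini-Hochberg adjustment over the 3 comparisons). Between SHR and WKY the difference was 0.28 (exact permutation p = 0.2, adjusted 0.2).

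Further ratios, with no test, showed which genes kept step. Slc4a9 relative to pendrin was 0.633 to 0.694 in WKY, 0.729 to 0.841 in SHR and 0.725 to 0.774 in treated SHR, so both SHR groups lay above WKY and overlapped each other. Rhcg relative to Rhbg was 1.23 to 1.37 in WKY, 1.38 to 1.46 in SHR and 1.52 to 1.64 in treated SHR, with no overlap. Pendrin relative to Foxi1 was 1.47 to 1.86 in WKY, 1.19 to 1.89 in SHR and 1.59 to 1.64 in treated SHR, and overlapped throughout. Relative to the mean log2 FPKM of 5 proton pump subunits enriched in intercalated cells, Slc4a9 lay at -1.09 to -0.96 in WKY, -0.58 to -0.54 in SHR and -0.57 to -0.43 in treated SHR. On the same scale Slc4a1 was 0.28 to 0.54 in WKY, 0.29 to 0.39 in SHR and 0.05 to 0.18 in treated SHR. For pendrin the group means in WKY, SHR and treated SHR were -0.41, -0.21 and -0.09, and for Rhcg 0.49, 0.70 and 0.94. In that order they were 0.13, 0.19 and 0.28 for Rhbg and -1.15, -0.81 and -0.77 for Foxi1. For Insrr they were -1.96, -1.57 and -1.485, and for Hepacam2 -2.21, -2.15 and -1.86.

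**Figure D3:**
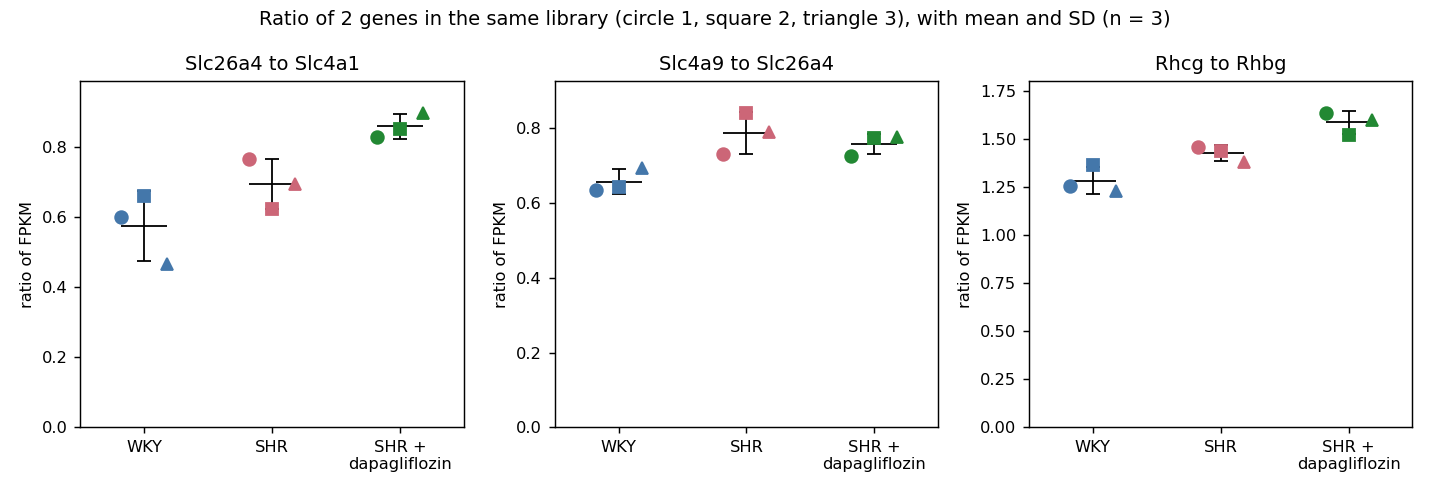
Ratios of FPKM of 2 genes in the same library (y axis, linear, from 0) by group (x axis); symbols are libraries 1 to 3 and bars give the mean and SD of 3 libraries. Pendrin relative to Slc4a1 (left) was 0.576 ± 0.0994 in WKY and 0.861 ± 0.0358 in treated SHR, and Rhcg relative to Rhbg (right) was 1.28 ± 0.0713 and 1.59 ± 0.0594. Slc4a9 relative to pendrin (middle) was 0.656 ± 0.0331 in WKY, below both SHR groups.

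Across the 9 libraries the 8 called genes followed each other closely, with Pearson's r of log2 levels between 0.948 and 0.994 over their 28 pairs. Slc4a8 correlated with them at 0.938 to 0.973, and Slc26a7 with the other 9 at -0.30 to -0.07. These values are descriptions, since the genes share libraries and groups. Likeness was sought among 8989 other genes with a mean of at least 5 FPKM, leaving out provisional or repeated symbols. Those most like pendrin were A4galt (r = 0.998), Ninl (0.993) and Scnn1b, a subunit of the epithelial sodium channel of principal cells (0.993). Those most like Slc4a1 were Zbtb4 (0.995), Dmrt2, a transcription factor of type A cells (0.991), and Pwwp2b (0.990). Those most like Rhcg were Ppl, Prrc2b and Fam81a (0.997, 0.997 and 0.996). Such likeness was common, as 394, 311 and 562 of the 8989 genes had an r above 0.95 with pendrin, Slc4a1 and Rhcg.

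Markers of neighbouring cells differed between the same groups as the 8 called genes. Of 12 markers of principal cells, the other main cell type of the collecting duct, 11 rose in treated SHR against WKY. St6gal1 was the exception at -0.82 (adjusted p = 0.146). In SHR against WKY 2 of the 12 rose, Aqp3 and Fxyd4, where 1.84% of all genes were called higher. The median log2 change of the 12 was 1.38 in treated SHR against WKY, next to 1.46 for the intercalated genes. The summed level of the 12 was 957 to 1590 FPKM in WKY, 1742 to 2048 in SHR and 2456 to 4315 in treated SHR. All 16 proximal tubule markers had lower means in treated SHR than in WKY and 2, Cubn and Slc7a13, fell. Their sum was 8589 to 10408 FPKM in WKY, 9280 to 9915 in SHR and 3916 to 8027 in treated SHR. Of 7 distal convoluted tubule markers tested, 6 rose in treated SHR against WKY, and of 8 podocyte markers 2 did, where 16.8% of all genes were called higher and 6.09% lower.

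With the principal cell marker mean as a covariate, 0 of 9 genes were called in any comparison, and the log2 changes of the 8 genes in treated SHR against WKY ran from -0.35 to 0.18. With the proximal marker mean as a covariate 0 of 9 were called, and the 8 ran from 0.30 to 1.06. Calls were lost over the whole table. In treated SHR against WKY the principal cell covariate left 20 of 13127 genes called and the proximal covariate 24, against 3010 with no covariate. Both marker means differ between the groups, so such a covariate also takes up part of the group difference. How much of the change in the 10 genes goes with the share of collecting duct in the tissue was not tested.

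**Figure D4:**
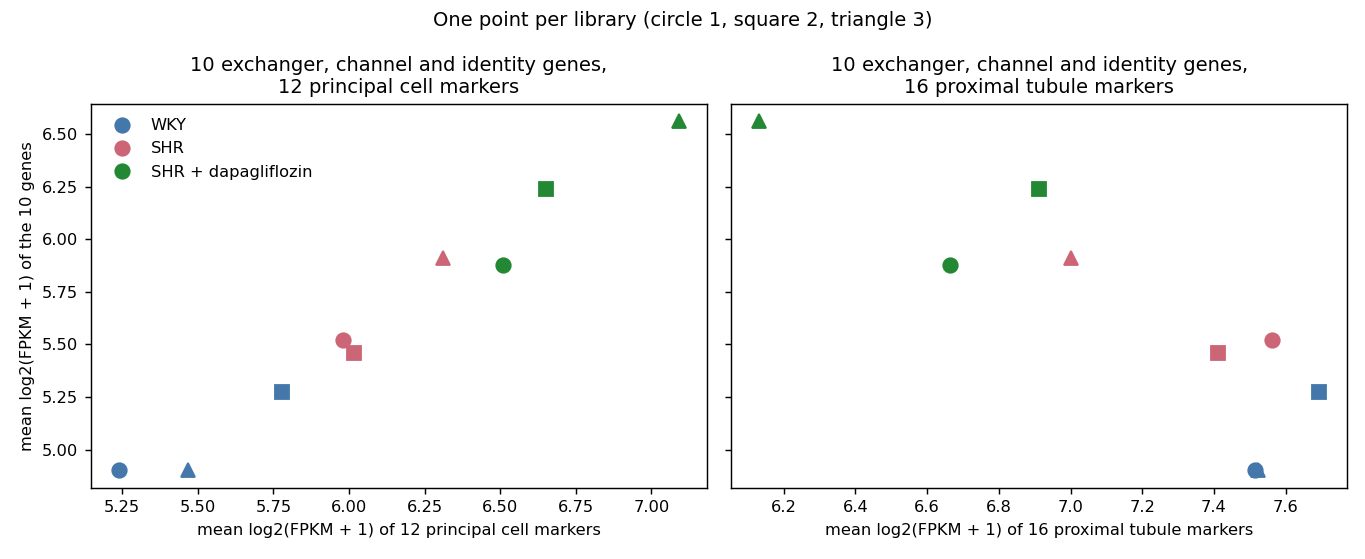
Mean log2(FPKM + 1) of the 10 genes (y axis) against that of 12 principal cell markers (left) and 16 proximal tubule markers (right), 1 point per library and 1 colour per group. The intercalated means, from 4.90 in WKY to 6.56 in treated SHR, run upward with the principal cell means and are highest in treated library 3, where the proximal mean is lowest at 6.13.

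Other intercalated cell genes went largely the same way. Of 23 on a fixed list 19 were tested, and in treated SHR against WKY 15 rose, 1 fell and 3 were not called, with a median log2 change of 1.03. Over all genes tested 16.8% were called higher and 6.09% lower. Car15, a membrane-bound carbonic anhydrase, rose to 183 ± 66.2 FPKM from 46.7 ± 12.3 in WKY (log2 change 1.92, SE 0.26, adjusted p = 0.00378). Adgrf5, the adhesion receptor GPR116 that restrains proton secretion by type A cells, rose to 100.1 ± 22.9 from 33.3 ± 4.38 (1.54, SE 0.18, adjusted p = 0.00187). Atp6v1g3, an intercalated cell subunit of the proton pump, rose to 475 ± 134 from 153 ± 37.0, Kit, a receptor tyrosine kinase, to 21.5 ± 4.68 from 9.96 ± 1.41, and P2ry14, a receptor for UDP-sugars, to 15.8 ± 4.10 from 6.67 ± 0.419. Slc26a11, an anion transporter, was the only one of the 19 called lower, at 9.40 ± 1.21 against 15.2 ± 0.311 (-0.65, SE 0.10, adjusted p = 0.00622). None of the calls named here held with either marker covariate, where 24 (proximal) and 20 (principal cell) of all genes were called.

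Between SHR and WKY 1 of these 19 rose and 1 fell, where 1.84% of all genes tested were called higher and 1.12% lower. Adgrf5 stood at 63.9 ± 9.76 FPKM against 33.3 ± 4.38 (log2 change 0.92, SE 0.18, adjusted p = 0.0311), a call lost without any 1 of the WKY 1, WKY 3 or SHR libraries or without treated library 2. The Adgrf5 call was also lost with the proximal (adjusted p = 0.0857) or the principal cell marker covariate (0.421). Slc26a11 stood at 10.9 ± 0.730 against 15.2 ± 0.311 (-0.45, SE 0.10, adjusted p = 0.0475), a call lost without any 1 of the 6 libraries compared, without treated library 2, with no filter (0.0647), with a pseudocount of 0.1 (0.0502), with no intensity trend (0.0558) or with either marker covariate (0.135 and 0.489). Atp6v1g3, at 309 ± 90.7 against 153 ± 37.0, did not pass (adjusted p = 0.0916). In treated against untreated SHR 0 of 19 were called. Those with the smallest p were Car15 (183 ± 66.2 against 78.5 ± 10.9), P2ry14 (15.8 ± 4.10 against 9.05 ± 1.49) and the water channel family member Aqp6 of type A cells (238 ± 53.6 against 153 ± 10.9), each at an adjusted p of 0.281. Without treated library 1 all 3 were called (0.0356, 0.0239 and 0.0335 in that order), as were 834 of all genes.

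Acid-base genes expressed mainly outside intercalated cells were called in both directions. Of 22, 21 were tested, and in treated SHR against WKY 4 rose and 4 fell, with a median log2 change of -0.11, where 16.8% of all genes were called higher and 6.09% lower. Among those that rose were the anion exchangers Slc4a2 (39.1 ± 4.80 against 28.9 ± 2.57 FPKM) and Slc4a3 (10.6 ± 2.53 against 6.02 ± 1.56) and the potassium channel gene Kcnj10 (41.7 ± 14.2 against 16.5 ± 8.18). Among those that fell were the carbonic anhydrase Ca14 (8.01 ± 2.202 against 19.6 ± 5.53), the channel gene Kcnj15 (27.1 ± 14.5 against 67.9 ± 10.97) and the tyrosine kinase Ptk2b (13.3 ± 1.31 against 18.3 ± 0.841). The calls of Slc4a2, Slc4a3 and Kcnj10 were lost without WKY 1, WKY 3, treated library 2 or treated library 3, that of Slc4a3 also without SHR 1. The call of Kcnj15 was lost without WKY 1, WKY 3 or treated library 3, and that of Ptk2b without WKY 3 or treated library 3. With only the 6 libraries compared, Slc4a2, Slc4a3, Kcnj10 and Kcnj15 were not called, while 1026 of all genes were. None of the genes named here was called with either marker covariate, where 24 (proximal) and 20 (principal cell) of all genes were.

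Between SHR and WKY 1 of these 21 genes rose and 1 fell, against 1.84% and 1.12% of all genes. The proton exchanger Slc9a3 stood at 39.7 ± 4.33 against 24.96 ± 1.86 FPKM (adjusted p = 0.015). This call was lost without WKY 1, WKY 3, SHR 1 or SHR 2, or with the principal cell covariate (0.0875). Ptk2b stood at 12.7 ± 0.987 against 18.3 ± 0.841 (adjusted p = 0.0249). Its call was lost without any 1 of the 6 libraries compared, or with the proximal (0.0629) or principal cell covariate (0.293). Ca14, at 9.68 ± 1.33 against 19.6 ± 5.53, did not pass (adjusted p = 0.0633), but was called with median-of-ratios scaling (0.0354) and quantile normalization (0.0396), among others. In treated against untreated SHR 0 of 21 were called, and the smallest p belonged to Slc9a3 (19.7 ± 1.98 against 39.7 ± 4.33 FPKM, adjusted p = 0.117). Slc9a3 was called lower without treated library 1 (adjusted p = 0.0212) and with array weights (0.00576), where 834 and 3590 of all genes were called. Kcnj15 stood at 27.1 ± 14.5 against 47.4 ± 4.17 (adjusted p = 0.285).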

How the data were processed

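Kidney RNA was isolated with Trizol and read on a BGISEQ-500 as single ends of 50 bases, per the labels' protocols. Per the submitters' processing notes, HISAT2 2.0.4, Bowtie2 2.2.5 and the build Rnor_6.0 were used, with no roles stated. For the expression program and annotation, nothing is given in the sources used here. The authors deposited FPKM, 1 column per library, rounded to 2 decimals. No read totals come with them, so counting error is unknown.

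Values were analysed as log2(FPKM + 1) with limma 3.58.1 (R 4.3.3) and two-sided tests. All 9 libraries entered 1 model with a mean per group (6 residual degrees of freedom), and the prior variance followed the mean level. Ratios were tested with exact permutation over libraries (scipy 1.17.1). The fit was tested on simulated data with noise drawn independently for each gene. Such data do not cover variation that many genes share within a library. Promoter windows are RefSeq's, matched by gene ID. Genes in each fixed list were matched by symbol, 3 of them by gene ID through synonyms.

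The 10 genes and all lists were chosen with earlier results of these data known. Named companion genes are, per comparison and list, up to 6 called by smallest p, or the 3 with the smallest p where fewer than 3 were called. Some genes that this rule or the marker lists hold are not reported here. Alternatives covered the pseudocount, filter, scaling, libraries fitted, variance prior, array weights, a replicate block, 2 covariates and leaving out each library.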

Additional observations from a re-analysis of the deposited data

How the results depend on the processing

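Within the limits of 3 libraries per group and unknown depth, the number of the 10 genes called was compared across settings. In treated SHR against WKY 8 were called under pseudocount 0.1, a filter of 5 FPKM, both other scalings, no intensity trend, array weights, the replicate block and the fit of the 6 libraries alone, and 9 with no filter, where Slc4a8 entered. The number was 0 with the proximal marker mean as covariate and 0 with the principal cell mean, and 5 to 8 with single libraries left out. In SHR against WKY it was 0 as reported, 1 with only the 6 libraries compared, 8 with array weights and 0 to 1 with single libraries left out. In treated against untreated SHR it was 0 as reported, 8 with array weights and 0 to 4 with single libraries left out. Array weights called 3911, 3590 and 8811 of all genes in the 3 comparisons, against 388, 0 and 3010 as reported. The cause was not tested.

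Counts over all genes moved by over 1.5 times elsewhere. In SHR against WKY 226 were called with the proximal covariate, 88 with the principal cell covariate and 135 to 625 with single libraries left out. In treated SHR against WKY the counts were 24, 20 and 515 to 4789, and 1026 with only the 6 libraries compared. In treated against untreated SHR 0 to 834 were called with single libraries left out, and 1997 genes had an unadjusted p under 0.05. Of the calls in treated SHR against WKY 73.5% were higher as deposited, 53.6% with median-of-ratios scaling and 59.9% with quantile normalization; in SHR against WKY the shares were 62.1%, 52.5% and 49.6%.

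Directions turned mainly with the principal cell covariate. In treated SHR against WKY its log2 changes were -0.26 for Slc4a1, -0.11 for Rhcg, -0.35 for Rhbg, -0.13 for Foxi1, -0.046 for Kit, -0.060 for Atp6v1g3, -0.18 for Slc4a2, -0.48 for Kcnj10 and -0.42 for Slc4a3. In SHR against WKY they were -0.10 for Slc4a1, -0.081 for Rhcg, -0.20 for Rhbg and -0.056 for Hepacam2. In treated against untreated SHR they were -0.086 for Slc4a9, -0.16 for Slc4a1, -0.024 for Rhcg, -0.15 for Rhbg, -0.20 for Foxi1 and -0.13 for Insrr. With the proximal covariate that comparison gave -0.0094 for Slc4a1 and -0.11 for Foxi1. Slc26a7 in treated SHR against WKY turned to 0.057 with the proximal covariate, 0.016 without WKY 3 and 0.026 without treated library 1. The pendrin to Slc4a1 ratio kept its direction with a pseudocount of 1 in both genes and without each library.

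Libraries with the same replicate number were not treated as pairs. Deviations from group means of same-numbered libraries correlated at -0.328 to 0.456 across genes. With the replicate block 0, 0 and 8 of the genes were called in the 3 comparisons, and 282, 1 and 2700 of all genes. The 1 gene was Slc9a3, lower in treated than in untreated SHR (adjusted p = 0.0341), and Slc26a11 was no longer called in SHR against WKY (0.0943).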
